A study of Mus musculus with 12 samples.

Results

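The 7 genes described here are myeloid transcripts followed in T cells of the mouse spleen. They were chosen by name, with earlier results of these data known, and no threshold on a measured value was used. Ngp, Camp, Lcn2 and Chil3 formed the neutrophil granule group, and Lyz2, Cst3 and Fcer1g formed the monocyte group. They are 7 of the 3684 genes that the authors listed for CD4 or CD8a cells. The CD4 tables listed 6 of them among 2999 genes, the CD8a tables listed 5 among 2851, and 4 (Ngp, Lcn2, Lyz2 and Cst3) were listed for both. Camp had no CD4 value, and Chil3 and Fcer1g had no CD8a value.

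The series profiled splenocytes of 12 mice by droplet single-cell RNA sequencing with 3' end counting and molecular identifiers. It asked how repeated social defeat stress, in which a mouse is repeatedly exposed to an aggressive one, acts in mice with and without S100a9, a subunit of the neutrophil protein calprotectin. The 4 groups of 3 mice were stressed S100a9-/- C57Bl6/J mice (KO stress), stressed C57Bl6/J mice (WT stress), unstressed S100a9-/- C57Bl6/J mice (KO control) and unstressed C57Bl6/J mice (WT control). The stress paradigm lasted 10 days, 1 day of behaviour testing followed, and spleens were taken on day 12. Erythrocytes were lysed in the preparation of all 12 spleens. The labels do not say whether KO and WT mice were littermates or give the ages of the mice. Each value below is the authors' average expression of a gene over the CD4 or the CD8a cells of 1 mouse.

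Neutrophils store antimicrobial proteins in granules that are filled in sequence during maturation in the bone marrow. Transcripts of the late-filled specific granules, such as Ngp, Camp and Lcn2, are abundant in granulocyte precursors and low in T cells. Lyz2, Cst3 and Fcer1g mark monocytes, macrophages and dendritic cells more broadly, and Lyz2 and Fcer1g are also expressed by neutrophils. C/EBP factors and the ETS factor PU.1 are known regulators of granule and monocyte genes.

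The promoters of the 3 granule genes that differed by genotype under stress, and that of the monocyte gene Lyz2, are shown to place the members in the genome. They are the 250 bases before the start of each gene in RefSeq on GRCm38.p6, read in the direction of the gene, for Ngp at chr9:110419558-110419807 on the plus strand, Camp at chr9:109849457-109849706 on the minus strand, Lcn2 at chr2:32387740-32387989 on the minus strand and Lyz2 at chr10:117282273-117282522 on the minus strand. Capitals mark a C/EBP-type motif, TTGCNNAA, or an ETS-type motif, AGGAAG, each searched on both strands, and no match of one overlapped a match of the other.
Ngp: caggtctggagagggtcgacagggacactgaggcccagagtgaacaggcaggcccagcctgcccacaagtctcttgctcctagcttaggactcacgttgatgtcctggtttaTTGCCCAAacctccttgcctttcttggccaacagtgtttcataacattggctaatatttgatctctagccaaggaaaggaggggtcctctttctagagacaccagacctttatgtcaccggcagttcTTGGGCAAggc
Camp: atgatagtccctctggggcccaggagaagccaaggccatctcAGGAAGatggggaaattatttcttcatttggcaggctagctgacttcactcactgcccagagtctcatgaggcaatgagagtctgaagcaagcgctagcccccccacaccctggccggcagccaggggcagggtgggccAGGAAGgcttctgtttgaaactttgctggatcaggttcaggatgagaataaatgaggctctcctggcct
Lcn2: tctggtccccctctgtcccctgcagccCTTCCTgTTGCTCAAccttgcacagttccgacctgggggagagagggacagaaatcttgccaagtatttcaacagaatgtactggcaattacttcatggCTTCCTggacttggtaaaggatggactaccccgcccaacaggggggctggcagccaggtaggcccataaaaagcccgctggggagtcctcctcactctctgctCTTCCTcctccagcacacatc
Lyz2: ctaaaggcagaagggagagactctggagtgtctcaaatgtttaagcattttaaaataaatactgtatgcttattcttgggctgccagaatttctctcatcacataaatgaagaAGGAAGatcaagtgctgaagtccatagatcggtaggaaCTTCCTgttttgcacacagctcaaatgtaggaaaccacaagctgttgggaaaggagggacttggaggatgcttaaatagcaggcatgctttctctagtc

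TTGCNNAA stood in the promoters of 2 of the 7 genes, with 2 matches in Ngp and 1 in Lcn2, and in 9.57% of 32536 RefSeq promoters of the same length. AGGAAG stood in 6 of the 7, all but Ngp, and in 29.6% of the same promoters. These matches describe letters only. Ngp (chromosome 9, 110419747 to 110423012, plus strand) and Camp (chromosome 9, 109847379 to 109849617, minus strand) are protein-coding neighbours at this scale, with 570130 bases between them in the mm10 annotation, which starts both genes upstream of their RefSeq starts. Lcn2 and Cst3 lie on chromosome 2, Chil3 on chromosome 3, Lyz2 on chromosome 10 and Fcer1g on chromosome 1.

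The cell labels were checked against T cell genes. In the CD4 tables, Cd4 lay between 1.66 and 3.01 in the 12 mice and Cd8a between 0.0526 and 0.269. In the CD8a tables, Cd8a lay between 3.38 and 5.27 and Cd3d, a subunit of the T cell receptor complex, between 7.77 and 10.7. The listed genes of a mouse summed to 8120 to 8225 in stressed and 7367 to 7562 in unstressed mice in CD4 cells. In CD8a cells the sums were 8102 to 8270 in stressed and 7419 to 7615 in unstressed mice, so in both cell types they separated the stress states. The smallest value above 0 in a mouse was 0.000938 to 0.00358 in CD4 cells and 0.000826 to 0.00312 in CD8a cells, and in every comparison all members but Cst3 were among the lowest 25% of genes by mean. S100a9, the targeted gene, was 0.0228 to 0.0294 in CD4 cells of KO stress, 0.0595 to 0.111 in WT stress, 0.0418 to 0.0493 in KO control and 0.00449 to 0.0167 in WT control mice. In CD8a cells it was 0.00779 to 0.0403 in KO stress, 0.0368 to 0.0889 in WT stress, 0.0307 to 0.0461 in KO control and 0.00415 to 0.0337 in WT control mice. The deleted part of the gene is not given in the sources used here, so 3' reads of S100a9 do not check the genotype label. Numbers of cells and reads are not given in the sources used here, so depth is unknown. Within an average, a few cells with many copies and many cells with few copies cannot be told apart, nor can myeloid cells among those labelled CD4 or CD8a, or free RNA, be told from expression by T cells.

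Granule transcripts were higher in T cells of stressed KO mice than of stressed WT mice. Ngp, the neutrophilic granule protein, was 0.170, 0.0829 and 0.0724 in CD4 cells of KO stress mice, against 0.0358, 0.00176 and 0.0190 in WT stress mice. Lcn2, lipocalin 2, which binds bacterial iron carriers, was 0.125, 0.0846 and 0.0588 in KO stress mice, against 0.0254, 0.00179 and 0.0141 in WT stress mice. For both genes the lowest KO stress mouse was above the highest WT stress mouse, as it was in 8.57% of all CD4 genes. Ngp averaged 0.109 ± 0.0537 in KO stress and 0.0189 ± 0.0170 in WT stress mice (SD, n = 3 each), a ratio of means of 5.76. For Lcn2 the means were 0.0895 ± 0.0334 in KO stress and 0.0138 ± 0.0118 in WT stress mice, a ratio of 6.49.

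The same held in CD8a cells. Ngp was 0.0762, 0.0663 and 0.0851 in KO stress mice, against 0.00963, 0.0207 and 0.0143 in WT stress mice. Camp, the precursor of the antimicrobial peptide cathelicidin, was 0.0600, 0.0501 and 0.0478 in KO stress mice, against 0.0225, 0.00730 and 0.0108 in WT stress mice. Lcn2 was 0.0533, 0.0698 and 0.0380 in KO stress mice, against 0.0178, 0.00567 and 0.0227 in WT stress mice. None of the 3 genes overlapped between the groups, a separation with KO higher that 10.7% of all CD8a genes showed, and the ratio of means was 5.11 for Ngp, 3.89 for Camp and 3.49 for Lcn2.

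Differences were tested with limma on log2(value + 0.1), a scale that understates the change of genes as low as these. A call is a Benjamini-Hochberg adjusted p under 0.05 over the genes that the authors listed for the comparison. With 3 mice against 3, an exact two-sided permutation test cannot go below 0.1. In CD4 cells, both members listed for the comparison of stressed mice were called higher in KO, where 14.9% of its 87 genes were called higher. The log2 differences were 0.79 ± 0.22 (SE) for Ngp and 0.73 ± 0.19 for Lcn2, each with a limma adjusted p of 0.0382. In CD8a cells, all 3 listed members were called higher in KO, where 27.3% of 99 genes were. The log2 difference was 0.61 ± 0.099 for Ngp (limma adjusted p = 0.00987), 0.43 ± 0.10 for Camp (limma adjusted p = 0.0213) and 0.41 ± 0.12 for Lcn2 (limma adjusted p = 0.0291). The authors' names for these gene lists include DE, read here as differential expression, but their rule of choice is unknown. The lists held 87 CD4 and 99 CD8a genes here, against 1898 to 2413 for stressed against unstressed mice. Listed genes may thus have been picked by their difference in these same mice. If so, adjusting over a comparison's list is too lenient. Calls of all its listed members would then add no separate evidence, in this or any other comparison. In 1 limma fit of all 12 mice over every gene listed for the cell type, the adjusted p in CD4 cells was 0.115 for Ngp and for Lcn2, and in CD8a cells 0.0352 for Ngp, 0.0683 for Camp and 0.146 for Lcn2, where 0.0333% of CD4 and 0.316% of CD8a genes were called higher. Centring each mouse on its median gene also ended calls, with a limma adjusted p of 0.0766 for Ngp and 0.109 for Lcn2 in CD4 cells, and of 0.0735 for Camp and 0.0933 for Lcn2, but 0.0236 for Ngp, in CD8a cells. Over 7 alternatives that kept every mouse, the limma adjusted p was 0.0209 to 0.115 for Ngp and 0.0174 to 0.115 for Lcn2 in CD4 cells, and 0.00283 to 0.0394 for Ngp, 0.0109 to 0.0735 for Camp and 0.0189 to 0.146 for Lcn2 in CD8a cells.

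Several of these calls were lost when 1 mouse was left out, which also leaves fewer mice to test. In CD4 cells, leaving out any of 5 of the 6 mice, all but WT stress mouse 3, ended the calls of Ngp and Lcn2, with a limma adjusted p of up to 0.104 for Ngp and 0.102 for Lcn2. In CD8a cells, Ngp lost its call without KO stress mouse 3 (limma adjusted p = 0.0522). Camp lost it without WT stress mouse 2, KO stress mouse 1 or KO stress mouse 3 (limma adjusted p up to 0.0598). Lcn2 lost it without any mouse but WT stress mouse 3 (limma adjusted p up to 0.0727). No left-out mouse turned a direction. In CD4 cells the log2 difference stayed at 0.59 to 0.91 for Ngp and 0.59 to 0.85 for Lcn2. Calls over all genes of the CD4 comparison ranged from 2 to 52 without 1 mouse, against 29 with every mouse. A lost call thus does not show that 1 mouse carried the difference.

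Chil3, a chitinase-like lectin of neutrophils and of some macrophages, was read in CD4 cells only. It was 0.0565, 0.0761 and 0.0425 in KO stress mice and 0.0338, 0.0246 and 0.0208 in WT stress mice. KO control mice had 0.0162, 0.0475 and 0.0115, and WT control mice were listed at 0. Every KO stress mouse was above every WT stress mouse, and the ratio of means was 2.21. Chil3 was not in the authors' table of stressed KO against stressed WT mice. In the 12-mouse fit its log2 difference was 0.32 ± 0.12, with a limma adjusted p of 0.375.

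**Figure D1:**
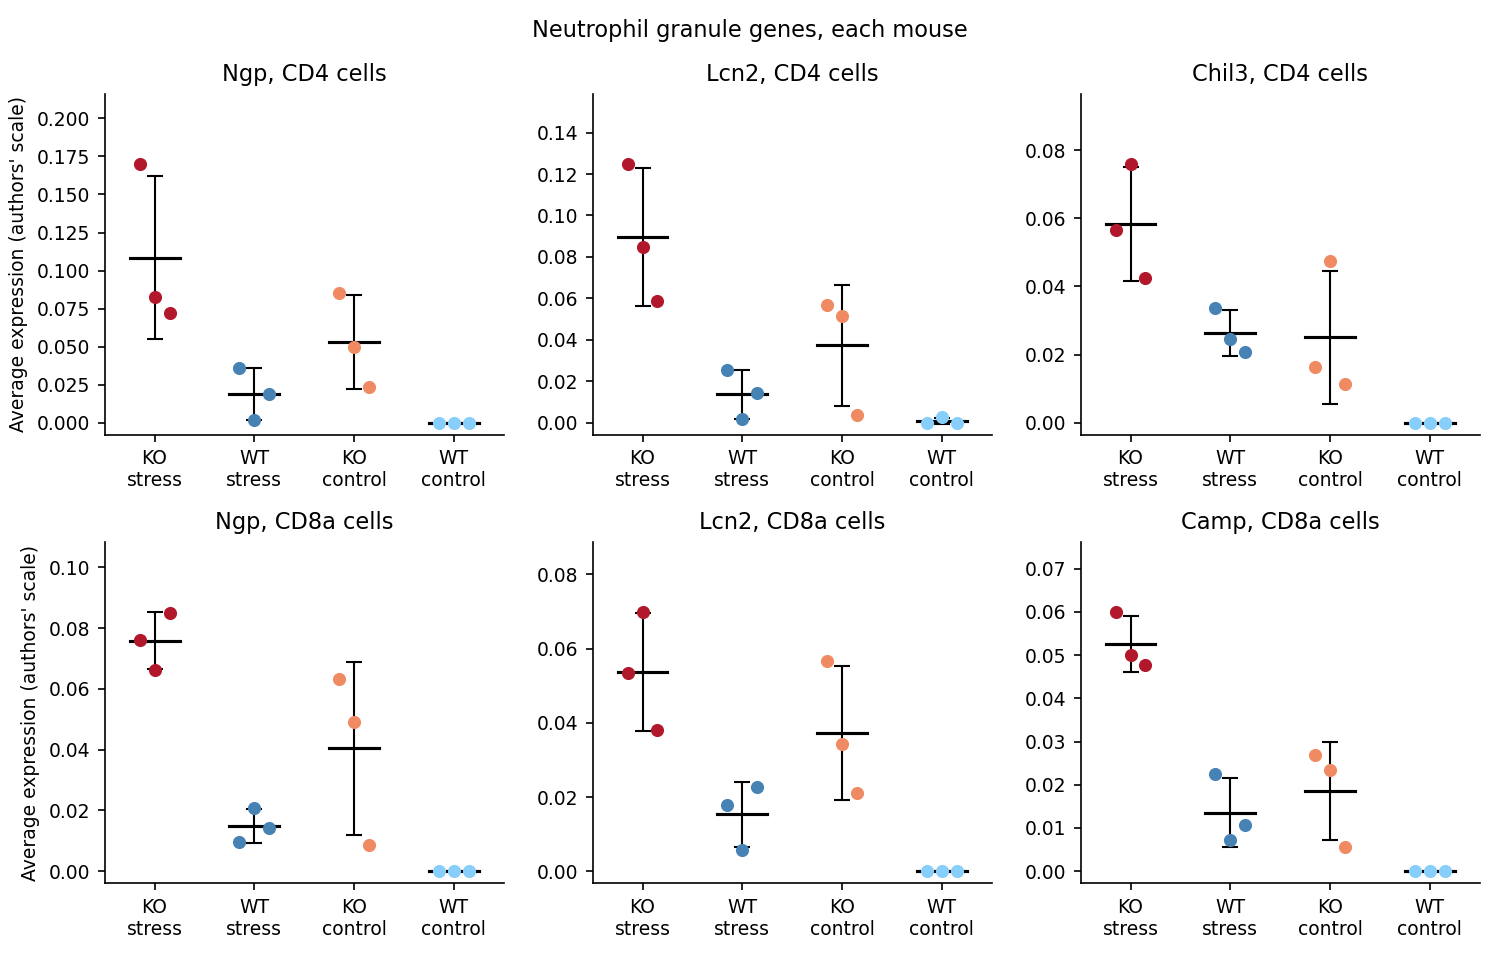
Average expression of neutrophil granule genes on the authors' linear scale in CD4 cells (top) and CD8a cells (bottom), 1 point per mouse, with the mean (long bar) and SD (whiskers) of 3 mice. KO stress mice are above all WT stress mice in each panel, and WT control mice are at 0 except for 1 mouse with Lcn2 at 0.00265 in CD4 cells.

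Without stress, the granule genes were near the floor of the tables in WT mice and readable in KO mice. In CD4 cells, Ngp was 0.0854, 0.0497 and 0.0236 in KO control mice and was listed at 0 in all 3 WT control mice. Lcn2 was 0.0569, 0.0515 and 0.00382 in KO control mice, against 0.00265 in 1 WT control mouse and 0 in the other 2. KO control mouse 3 was the lowest of its group for Ngp, Lcn2 and Chil3. In CD8a cells, Ngp was 0.0634, 0.0493 and 0.00869, Camp 0.0269, 0.0234 and 0.00564, and Lcn2 0.0567, 0.0342 and 0.0210 in KO control mice, and all 3 genes were listed at 0 in the WT control mice. Mouse 3 was again lowest. A separation of unstressed mice with KO higher was seen for all 6 members in CD4 cells and in 19.6% of CD4 genes, and for 4 of 5 members, all but Cst3, in CD8a cells and in 12.8% of CD8a genes. Only 8 of the 2999 CD4 genes were at 0 in all 3 WT control mice, and Ngp and Chil3 were among them. In CD8a cells 4 of 2851 were, and Ngp, Camp and Lcn2 made up 3 of the 4, with the erythrocyte anion exchanger Slc4a1 as the other, a gene named here after its values were seen.

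Since WT control mice were at 0, no fold is given for these genes, and any log2 difference depends on the added 0.1. In CD8a cells, 1 of the 2 granule genes listed for the comparison, Lcn2, was called higher in KO control mice (limma adjusted p = 0.0463), and Ngp was not (limma adjusted p = 0.0688). Among its 303 genes 3.96% were called higher. The call of Lcn2 was lost without any mouse but KO control mouse 3 (limma adjusted p up to 0.128) and after centring (0.0753, with 0.00708 to 0.0825 over the alternatives that kept every mouse), while without that mouse Ngp was called (limma adjusted p = 0.00805). In CD4 cells, neither Ngp (limma adjusted p = 0.0548) nor Lcn2 (limma adjusted p = 0.103) was called. Without KO control mouse 3 both were, at 0.0115 for Ngp and 0.0139 for Lcn2. Over the alternatives that kept every mouse, the limma adjusted p was 0.0164 to 0.136 for Ngp and 0.0316 to 0.465 for Lcn2. Chil3 in CD4 cells (limma adjusted p = 0.176) and Camp in CD8a cells (0.343), taken from the 12-mouse fit, were not called, and 2.23% of CD4 and 0.281% of CD8a genes were called higher in it.

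Across both stress states, every KO mouse was above every WT mouse of the same state for Ngp, Lcn2 and Chil3 in CD4 cells. Such a pattern was seen in 2.47% of CD4 genes, 74 of 2999. In CD8a cells it was seen for Ngp, Camp, Lcn2 and Lyz2 and in 2.39% of genes, 68 of 2851. Ngp and Lcn2 were listed for both KO against WT comparisons in each cell type. In CD4 cells these held 87 and 496 genes, against 1898 and 2413 for the stress comparisons. If genes were listed by their difference, a low share does not show that the pattern is rare. This holds for every share of genes separated between KO and WT mice given here.

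Between stressed and unstressed mice, calls of granule genes were made for Lcn2 in CD4 and Camp in CD8a cells of KO mice and for Chil3 in CD4 cells of WT mice. In KO mice, Lcn2 in CD4 cells was higher in every stressed than in every unstressed mouse, as were 18.3% of CD4 genes, and was called higher (log2 difference 0.47 ± 0.17, limma adjusted p = 0.041). It was the 1 called of 3 members listed for that comparison, in which 19.5% of 1898 genes were called higher. Ngp and Chil3 overlapped between stressed and unstressed KO mice and were not called (limma adjusted p = 0.0715 for Ngp and 0.0661 for Chil3). The call of Lcn2 was lost without KO control mouse 3 (limma adjusted p = 0.252), KO stress mouse 1 (0.166) or KO stress mouse 2 (0.0848). Ngp was called without KO control mouse 1 (limma adjusted p = 0.0237), and Chil3 without KO control mouse 2 (0.0282) or KO stress mouse 3 (0.042). Over the alternatives that kept every mouse, the limma adjusted p was 0.00628 to 0.0553 for Lcn2, 0.0108 to 0.0946 for Ngp and 0.0345 to 0.138 for Chil3.

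In CD8a cells of KO mice, Camp was called higher under stress, with a mean of 0.0526 ± 0.00648 in KO stress and 0.0186 ± 0.0114 in KO control mice (SD, n = 3 each). Its log2 difference was 0.37 ± 0.11 (limma adjusted p = 0.0149), where 17.9% of 2023 genes were called higher. Without KO control mouse 3 the limma adjusted p was 0.113. Ngp and Camp separated the same groups, as 18.9% of CD8a genes did, but Ngp without a call (limma adjusted p = 0.0677), and was called without KO control mouse 1 (0.0325). Lcn2 was not called, with means of 0.0537 ± 0.0159 in KO stress and 0.0373 ± 0.0181 in KO control mice (limma adjusted p = 0.326).

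In WT mice, the contrast is between stressed mice with low values and unstressed mice at or near 0. Chil3 in CD4 cells was called higher under stress (limma adjusted p = 0.0226), but not without WT control mouse 2 (0.0514) or WT stress mouse 1 (0.0602). Ngp (limma adjusted p = 0.273) and Lcn2 (0.404) in CD4 cells, from the 12-mouse fit, in which 22.9% of genes were called higher, were not called. In CD8a cells, Ngp (limma adjusted p = 0.198), Camp (0.148) and Lcn2 (0.147), from the same kind of fit, in which 18.8% of genes were called higher, were not called either. Every WT stress mouse was above every WT control mouse for 4 of 5 members in CD8a cells, Lyz2 being the exception, and in 24.5% of CD8a genes. In CD4 cells this held for 5 of 6, all but Lcn2, and in 30.1% of genes. After centring, 54.2% of the 2108 genes listed for the comparison were called higher with stress in CD8a cells of WT mice, against 26.7% without centring. All 5 members were then called higher, with a limma adjusted p of 0.00822 for Ngp, 0.00347 for Camp and 0.00434 for Lcn2, against up to 0.34 for Ngp, 0.276 for Camp and 0.283 for Lcn2 under the other alternatives that kept every mouse.

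The monocyte genes differed among themselves in how the groups of mice were ordered. In CD4 cells, every WT stress mouse was above every WT control mouse for Lyz2, Cst3 and Fcer1g, as in 30.1% of CD4 genes. Every KO control mouse was too, as in 19.6% of CD4 genes. Every KO stress mouse was above every WT control mouse for Lyz2 and Cst3 but not for Fcer1g, a pattern whose share over all genes was not computed. These groups differ in both stress and genotype, so nothing is concluded from this separation. Lyz2, the lysozyme of myeloid cells, was 0.0899, 0.111 and 0.104 in CD4 cells of KO stress mice and 0.105, 0.0624 and 0.106 in WT stress mice. It was 0.202, 0.368 and 0.107 in KO control mice and 0.0498, 0.0434 and 0.0140 in WT control mice. KO control mice 1 and 2 were the highest of all, and the stressed groups overlapped.

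Cst3, the protease inhibitor cystatin C, is also made by many cells outside the myeloid lineage. In CD4 cells it was 0.842, 0.910 and 0.899 in KO stress mice, 1.05, 0.950 and 1.00 in WT stress mice, 1.18, 0.998 and 0.840 in KO control mice, and 0.694, 0.641 and 0.734 in WT control mice. Every KO stress mouse was below every WT stress mouse, a pattern seen in 5.57% of CD4 genes, with means of 0.884 ± 0.0362 in KO stress and 1.00 ± 0.0503 in WT stress mice (SD, n = 3 each).

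Fcer1g, the signalling chain shared by several Fc receptors, is found in monocytes, neutrophils, mast cells and natural killer cells. In CD4 cells it was 0.153, 0.266 and 0.0325 in KO stress mice and 0.109, 0.0771 and 0.167 in WT stress mice. KO control mice had 0.156, 0.112 and 0.203, and WT control mice had 0.0646, 0.0445 and 0.0105. All KO control mice were above all WT control mice, while KO stress mouse 2 was the highest and KO stress mouse 3 the lowest of the stressed mice. That lowest value lay inside the range of the WT control mice.

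**Figure D2:**
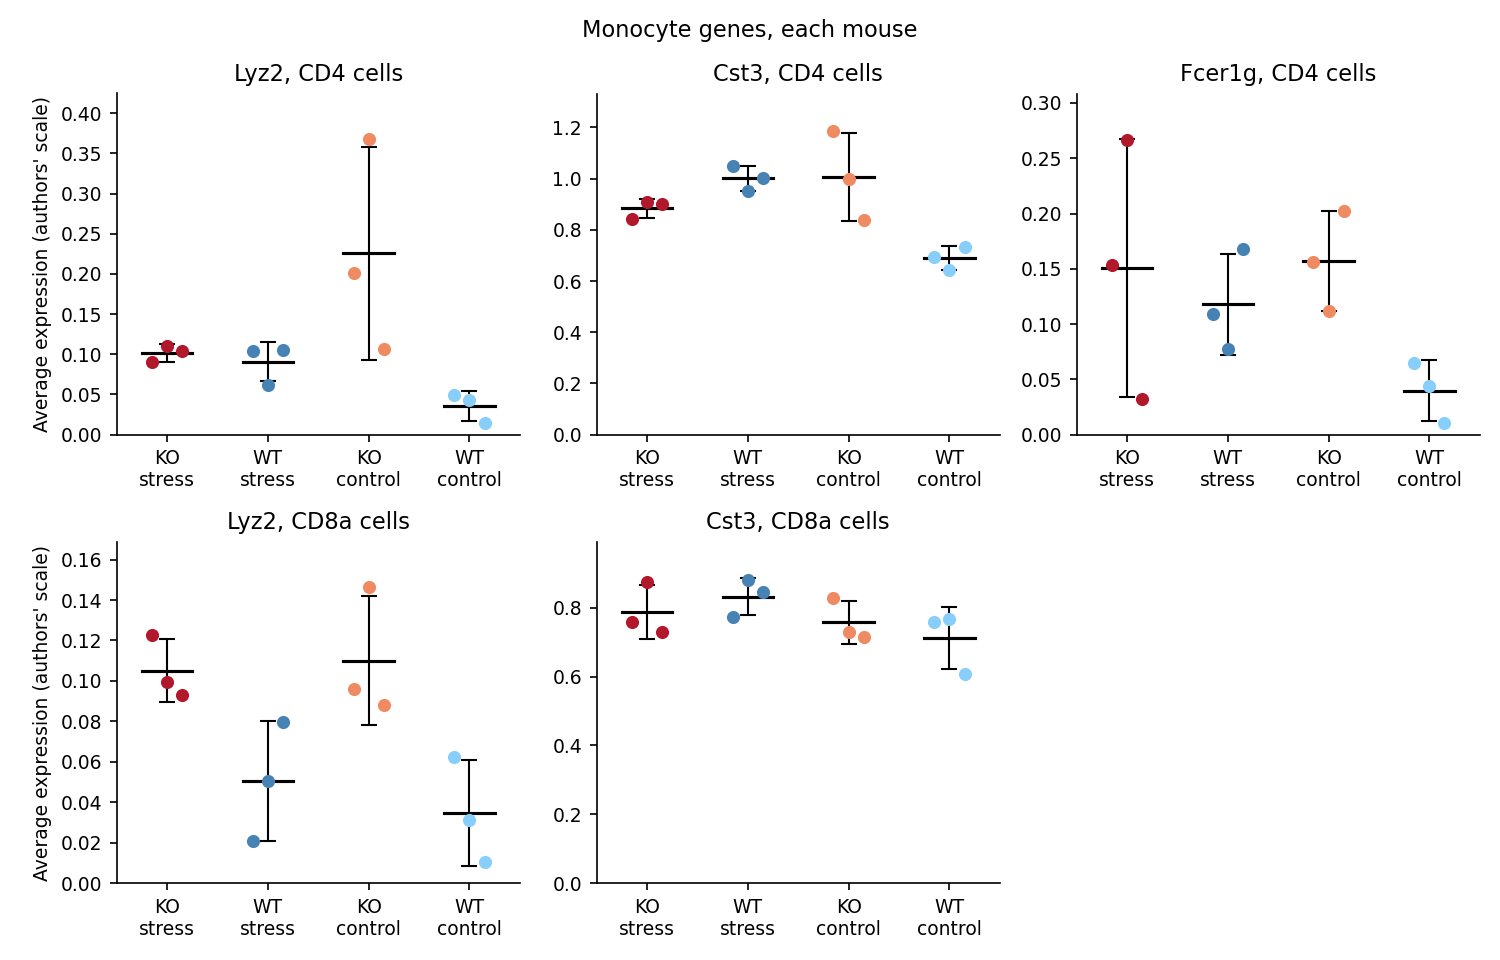
Average expression of monocyte genes on the authors' linear scale in CD4 cells (top) and CD8a cells (bottom), 1 point per mouse, with the mean (long bar) and SD (whiskers) of 3 mice. In CD4 cells WT control mice are lowest for Lyz2 and Cst3, and the stressed groups overlap for Lyz2 and Fcer1g.

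In CD4 cells of unstressed mice, 2 of the 3 monocyte genes were called higher in KO, where 15.1% of 496 genes were called higher and the median log2 difference of all 496 was 0.20. Lyz2 averaged 0.226 ± 0.132 in KO control and 0.0357 ± 0.0191 in WT control mice (SD, n = 3 each), a ratio of 6.32 and a log2 difference of 1.19 ± 0.29 (limma adjusted p = 0.0475). Fcer1g averaged 0.157 ± 0.0454 in KO control and 0.0399 ± 0.0273 in WT control mice, a ratio of 3.94 and a log2 difference of 0.88 ± 0.22 (limma adjusted p = 0.0475). Cst3 had a ratio of 1.46 and was just short of a call (limma adjusted p = 0.052). The calls of Lyz2 and Fcer1g were lost without any mouse but KO control mouse 3 (limma adjusted p up to 0.126 for each), and without that mouse Cst3 was called (0.0187). When each mouse was centred on its median gene, the median difference of all genes was −0.06 and the differences became 0.93 for Lyz2 and 0.61 for Fcer1g, of which only Lyz2 was called (limma adjusted p = 0.0359, against 0.0778 for Fcer1g). Over the alternatives that kept every mouse the limma adjusted p was 0.0072 to 0.059 for Lyz2 and 0.0182 to 0.0952 for Fcer1g. For Cst3 it was 0.0132 to 0.18, with calls in 4 of 8. In the 12-mouse fit, Lyz2 (limma adjusted p = 0.0119) and Cst3 (0.03) were called and Fcer1g (0.0952) was not, where 2.23% of CD4 genes were called higher. Which 2 of the 3 genes were called thus depended on the fit.

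Under stress, no monocyte gene was called between KO and WT. All were taken from the 12-mouse fit, with log2 differences of 0.09 ± 0.22 for Lyz2 (limma adjusted p = 0.931), −0.16 ± 0.11 for Cst3 (0.649) and 0.10 ± 0.28 for Fcer1g (0.936). The SE of Lyz2 and Fcer1g exceeded their differences.

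With stress in WT mice, Lyz2 and Cst3 were called higher in CD4 cells and Fcer1g was not. Lyz2 averaged 0.0910 ± 0.0247 in WT stress and 0.0357 ± 0.0191 in WT control mice (SD, n = 3 each), with a log2 difference of 0.49 ± 0.15 (limma adjusted p = 0.0112). The means of Cst3 were 1.00 ± 0.0503 in WT stress and 0.690 ± 0.0464 in WT control mice, with a log2 difference of 0.48 ± 0.094 (limma adjusted p = 0.000743). Together with Chil3, all 3 members listed for this comparison were called higher, where 31.0% of 2413 genes were. The calls of Lyz2 and Cst3 held without each mouse in turn, but in the 12-mouse fit, which covers all 3 monocyte genes, Cst3 was called (limma adjusted p = 0.00129) and Lyz2 was not (limma adjusted p = 0.072, with 0.00443 to 0.072 over the alternatives that kept every mouse). Fcer1g, from the 12-mouse fit, had a log2 difference of 0.64 ± 0.28 (limma adjusted p = 0.0714).

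In KO mice no monocyte gene was called higher under stress. From the 12-mouse fit, in which 29.0% of 2999 CD4 genes were called lower, Lyz2 was lower in KO stress than in KO control mice by a log2 difference of −0.61 ± 0.22 (limma adjusted p = 0.0338). The ratio of means was 0.451, the groups overlapped, and the call was lost without any mouse but KO control mouse 3 (limma adjusted p up to 0.211). It was also lost after centring (0.0726, with 0.00697 to 0.0799 over the alternatives that kept every mouse). Cst3 had a log2 difference of −0.16 ± 0.11 (limma adjusted p = 0.258) and Fcer1g −0.14 ± 0.28 (0.735).

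The difference in stress effect between KO and WT mice was tested over 12 mice. No gene (0.0%) was called in either cell type with limma, although 284 CD4 and 204 CD8a genes had an unadjusted p under 0.05. In CD4 cells the interaction was −1.11 ± 0.31 on the log2 scale for Lyz2 (limma adjusted p = 0.32), −0.64 ± 0.15 for Cst3 (0.223) and −0.78 ± 0.40 for Fcer1g (0.537). Without KO control mouse 3, Lyz2 (−1.39) and Cst3 (−0.75) were called, each with a limma adjusted p of 0.0176. The granule genes had a limma adjusted p of 0.628 to 0.993 in CD4 cells and of 0.771 to 0.961 in CD8a cells.

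In CD8a cells, Lyz2 was 0.123, 0.0995 and 0.0929 in KO stress mice, 0.0207, 0.0504 and 0.0799 in WT stress mice, 0.0958, 0.146 and 0.0879 in KO control mice, and 0.0625, 0.0313 and 0.0105 in WT control mice. In each stress state every KO mouse was above every WT mouse, as in 2.39% of CD8a genes, while the stressed groups overlapped in CD4 cells. No call was made in the main fits. Under stress the log2 difference between KO and WT was 0.46 ± 0.16 (12-mouse limma fit, adjusted p = 0.24), and without stress it was 0.65 ± 0.17 (limma adjusted p = 0.0557, and 0.0249 without WT control mouse 1). Over the alternatives that kept every mouse, the limma adjusted p without stress was 0.0348 to 0.0975, with calls under sample weights (0.0348) and without a trend (0.0465). Cst3 in CD8a cells averaged 0.788 ± 0.0775 in KO stress, 0.832 ± 0.0544 in WT stress, 0.757 ± 0.0625 in KO control and 0.711 ± 0.0899 in WT control mice (SD, n = 3 each). KO and WT mice overlapped for Cst3 in both stress states. It was not called in any CD8a comparison, with a limma adjusted p of 0.103 for stress in WT mice, where 26.7% of 2108 genes were called higher, and of 0.762 or more elsewhere. Stressed and unstressed KO mice overlapped for Lyz2 in CD8a cells (log2 difference −0.03 ± 0.16, 12-mouse limma fit, adjusted p = 0.912).

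**Figure D3:**
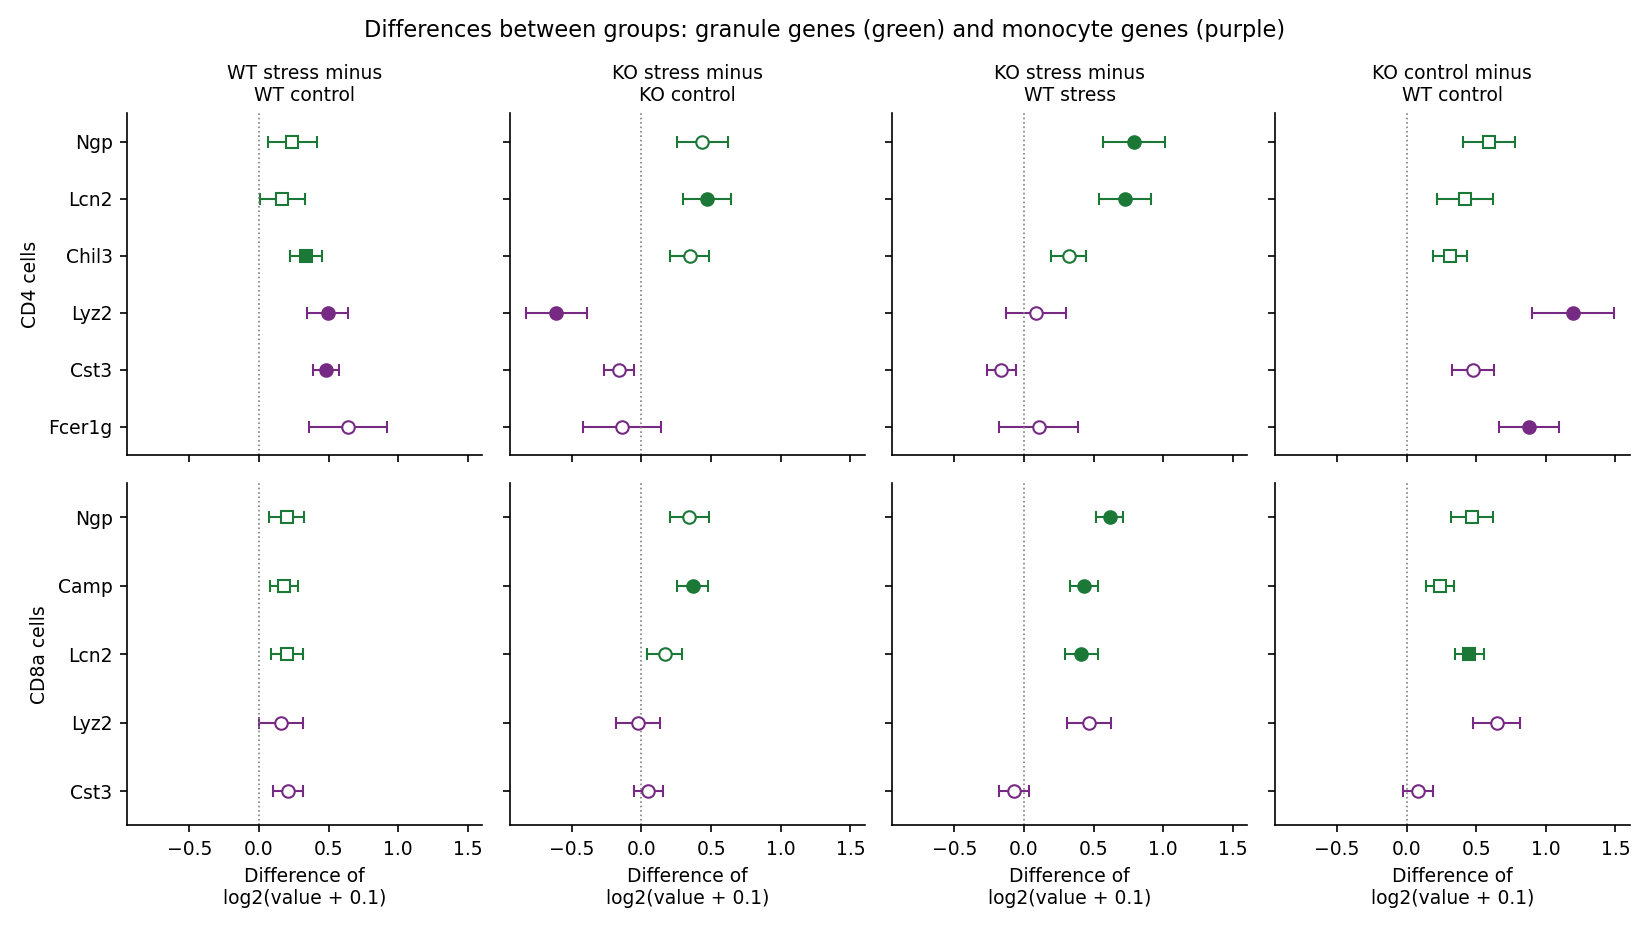
Differences of log2(value + 0.1) with their SE for each member in 4 comparisons (columns) in CD4 cells (top) and CD8a cells (bottom), with granule genes in green and monocyte genes in purple. Filled symbols are calls, and squares mark comparisons with at least 1 mouse of the WT control group listed at 0, where the size is set by the added 0.1. For stressed KO against stressed WT mice the calls are Ngp and Lcn2 in CD4 cells and Ngp, Camp and Lcn2 in CD8a cells.

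The values of the listed members were also summed within the granule and the monocyte group. Cst3 made up most of the monocyte sum, 67.5% to 96.8% of it in CD4 cells and 83.3% to 98.3% in CD8a cells of the 12 mice. The granule sum in CD4 cells was 0.352, 0.244 and 0.174 in KO stress, 0.0950, 0.0281 and 0.0540 in WT stress, and 0.158, 0.149 and 0.0389 in KO control mice. It was 0, 0.00265 and 0 in WT control mice. The monocyte sum in CD4 cells was 1.09, 1.29 and 1.04 in KO stress, 1.26, 1.09 and 1.27 in WT stress, 1.54, 1.48 and 1.15 in KO control, and 0.808, 0.729 and 0.758 in WT control mice. In CD4 cells, KO stress mice were thus the highest of all for the granule sum, while for the monocyte sum they overlapped WT stress mice. In CD8a cells the granule sum was 0.189, 0.186 and 0.171 in KO stress, 0.0499, 0.0336 and 0.0477 in WT stress, 0.147, 0.107 and 0.0354 in KO control and 0 in all WT control mice. The monocyte sum in CD8a cells overlapped between stressed KO mice, with 0.882, 0.975 and 0.821, and stressed WT mice, with 0.793, 0.930 and 0.924. Lyz2, the other part of that sum in CD8a cells, did not overlap between them.

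**Figure D4:**
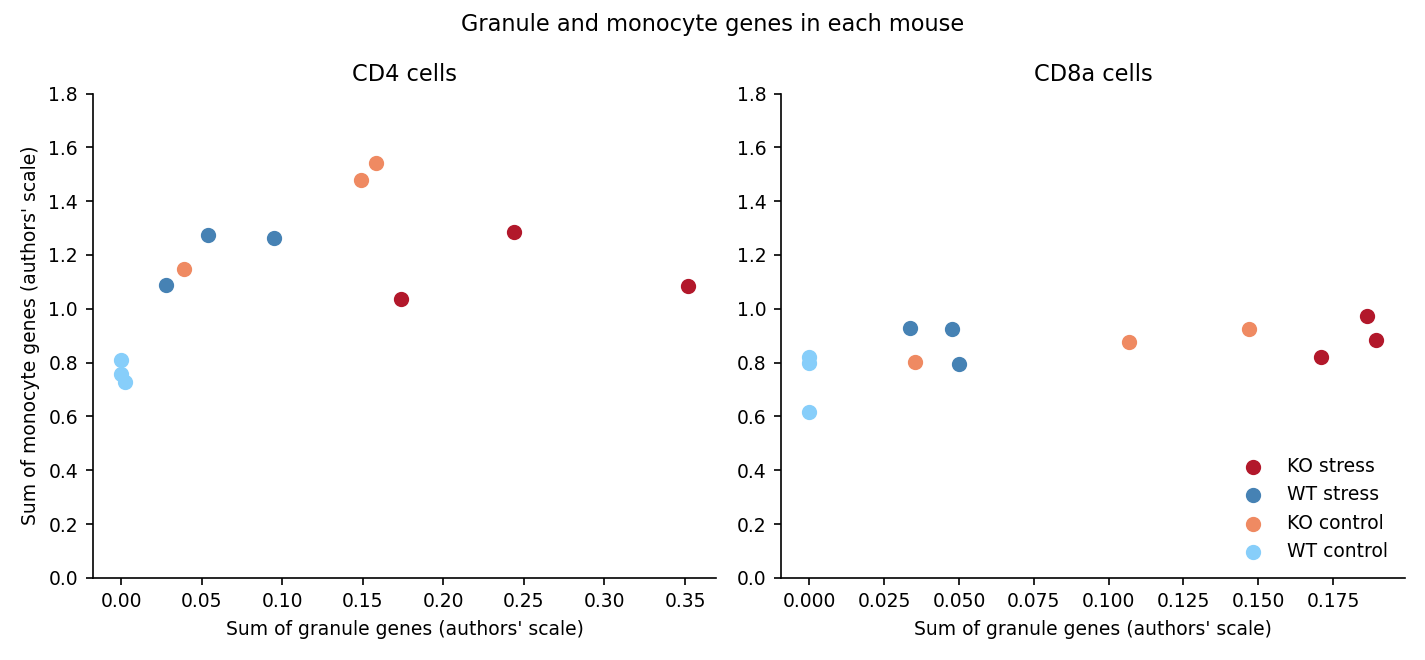
Sum of the granule genes (x axis) against the sum of the monocyte genes (y axis) in each mouse, on the authors' linear scale, for CD4 cells (left, 3 granule and 3 monocyte genes) and CD8a cells (right, 3 granule and 2 monocyte genes). KO stress mice lie farthest right, from 0.174 to 0.352 in CD4 cells and from 0.171 to 0.189 in CD8a cells, while their monocyte sums are not the highest in CD4 cells.

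Within a mouse, 2 of the 4 members listed for both cell types were called lower in CD8a than in CD4 cells, where 35.2% of 2166 genes were called lower. Lyz2 was lower in CD8a cells in 10 of 12 mice, with a mean of 0.0751 ± 0.0413 in CD8a and 0.114 ± 0.0929 in CD4 cells (SD, n = 12 each) and a log2 difference of −0.23 ± 0.070 (limma adjusted p = 0.00983). Cst3 was lower in CD8a cells in 10 of 12 mice, with 0.772 ± 0.0771 in CD8a and 0.895 ± 0.156 in CD4 cells and a log2 difference of −0.18 ± 0.047 (limma adjusted p = 0.00321). Ngp (log2 difference −0.10 ± 0.062, limma adjusted p = 0.207) and Lcn2 (−0.07 ± 0.053, 0.302) were not called. The CD4 and CD8a values of a mouse come from 1 spleen preparation, so their shared pattern over groups is not independent.

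Other myeloid genes were read from lists of 33 neutrophil and 46 monocyte and macrophage genes. Of these, 6 neutrophil genes were listed for CD4 cells (S100a8, S100a9, Pglyrp1, Anxa1, G0s2 and Slpi) and 4 for CD8a cells, while Ltf, Mmp8, Mmp9, Ly6g, Csf3r, Cxcr2 and Retnlg, which define neutrophils, had no value here. The summed neutrophil list in CD4 cells was 0.774 to 0.875 in KO stress, 0.692 to 0.935 in WT stress, 0.610 to 1.02 in KO control and 0.469 to 0.512 in WT control mice. This sum holds S100a9, the targeted gene, and KO and WT mice overlapped for it under stress. Without S100a9, a sum added after the values were seen, they overlapped too, at 0.751 to 0.852 in KO stress and 0.633 to 0.825 in WT stress mice. In KO stress mouse 1, S100a8 gave 0.124 and S100a9 0.0294 of the full sum of 0.819, so other genes made up most of it. Within a mouse, G0s2 and Pglyrp1 were called higher in CD8a than in CD4 cells (log2 differences 0.75 and 0.26), and S100a8 lower (−0.18). Which cells these transcripts came from was not tested, so the overlap does not show that neutrophil RNA was alike. For stress in WT mice, 4 of 5 listed neutrophil genes were called higher and 0 lower in CD4 cells, where 31.0% of 2413 genes were called higher. Their median log2 difference was 0.36 against 0.15 for all genes. In CD8a cells 4 of 4 were called higher, where 26.7% of 2108 genes were, with a median of 0.55 against 0.09 for all genes. For stress in KO mice, 0 of 2 were called in CD4 cells and 1 of 2, Pglyrp1, higher in CD8a cells, where 17.9% of genes were. For KO against WT mice without stress, 0 of 1 was called in CD4 cells and 1 of 1, G0s2, higher in CD8a cells, where 3.96% were. Under stress none of the list was in the authors' table of KO against WT mice.

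S100a8, the partner of S100a9 in calprotectin, lay between 0.0711 and 0.124 in CD4 cells of KO stress mice and between 0.0529 and 0.151 in WT stress mice. It overlapped between the same groups in CD8a cells, at 0.0341 to 0.0726 in KO stress and 0.0276 to 0.127 in WT stress mice.

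Of the monocyte and macrophage list, 13 genes were listed for CD4 cells and 6 for CD8a cells, and Csf1r, Cd68 and Adgre1 had no value here. For stress in WT mice, 6 of 10 listed genes were called higher and 0 lower in CD4 cells, where 31.0% of all genes were called higher. Their median log2 difference was 0.62. In CD8a cells 2 of 6 were called higher, where 26.7% of genes were, and 1 lower, where 41.5% were. For stress in KO mice 1 of 3 was called higher in CD4 cells, Ly6c2, where 19.5% of genes were, and 0 of 2 in CD8a cells. Within a mouse, Ly6c2 and Plac8 were called higher in CD8a than in CD4 cells, 2 of 5 genes of this list, and 3 were called lower. Of all 2166 genes compared, 379 were called higher and 763 lower. The log2 differences were 3.10 for Ly6c2 and 2.06 for Plac8, and the cells these transcripts came from were not tested. For unstressed KO against WT mice, 2 of 7 were called higher in CD4 cells, where 15.1% of genes were, and 0 of 2 in CD8a cells. The called genes were Lgals3, galectin 3, with a log2 difference of 1.79 ± 0.35 (limma adjusted p = 0.0407), and Tyrobp, an adaptor that like Fcer1g carries an activating motif, with 0.65 ± 0.18 (limma adjusted p = 0.0475). The monocyte list summed to 4.78 to 6.78 in KO stress, 4.10 to 6.02 in WT stress, 4.62 to 7.42 in KO control and 3.17 to 4.01 in WT control mice in CD4 cells.

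Haemoglobin transcripts, which come from erythroid cells, also differed between groups. The 4 listed haemoglobin genes, of an erythroid list of 7, summed in CD4 cells to 5.08, 1.74 and 1.70 in KO stress, 0.732, 0.197 and 2.36 in WT stress, 5.52, 4.06 and 0.627 in KO control and 0.141, 0.0917 and 0.0891 in WT control mice. In CD8a cells they summed to 15.9, 1.39 and 5.66 in KO stress, 0.688, 0.228 and 0.601 in WT stress, 2.77, 2.39 and 0.351 in KO control and 0.850, 0.0769 and 0.0342 in WT control mice. KO control mouse 3 was lowest of its group here too, while WT stress mouse 3 was above KO stress mice 2 and 3 in CD4 cells. All 4 genes were called higher in KO under stress in CD8a cells, where 27.3% of genes were. They were also called higher in KO without stress in CD4 cells, where 15.1% were. In the other KO against WT comparisons 0 of 4 were called. With stress, all 4 were called higher in CD4 cells of WT mice, where 31.0% of genes were. In CD8a cells of KO mice 1 of 4 was, where 17.9% were. In CD4 cells of KO mice and CD8a cells of WT mice 0 of 4 were called. T cell genes summed to 57.2 to 67.4 in CD4 and 61.5 to 71.4 in CD8a cells of all mice. The part that RNA of erythroid or myeloid origin has in the member values was not tested.

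Lists of 14 B cell and MHC class II genes and of 15 natural killer genes were counted in the same way. With stress in KO mice, all 8 listed B cell and MHC class II genes were called lower in CD4 cells, where 20.0% of genes were, and all 9 in CD8a cells, where 22.1% were. With stress in WT mice, 2 of 2 were called lower in CD8a cells, where 41.5% of genes were. Of the natural killer genes, 2 of 2 in KO and 3 of 6 in WT mice were called higher with stress in CD4 cells, and 3 of 5 in KO and 3 of 5 in WT mice in CD8a cells. Of all listed genes, 19.5% in KO and 31.0% in WT mice were called higher in CD4 cells, and 17.9% and 26.7% in CD8a cells. In CD4 cells the called natural killer genes were Gzma and Klrd1 in KO and Gzma, Ccl5 and Nkg7 in WT mice. In CD8a cells they were Ccl5, Nkg7 and Xcl1 in both. Within a mouse, all 3 genes of this list with values in both cell types were called higher in CD8a than in CD4 cells, as were 379 of 2166 genes. Whether T cells or natural killer cells were the source of these transcripts was not tested. For KO against WT mice without stress, 1 of 2 natural killer genes was called higher in CD4 cells, where 15.1% of genes were, and 0 of 2 in CD8a cells. The called gene was Tyrobp, which is also on the monocyte and macrophage list and is counted there too. The 1 B cell or MHC class II gene listed in each cell type was not called.

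Over the 12 mice, the genes most like each member were found by Pearson r of log2(value + 0.1), given as a description of values that share groups and libraries. In CD4 cells, Ngp and Lcn2 were each other's closest gene of 2999 (r = 0.97). In CD8a cells, Ngp and Camp were each other's closest of 2851 (r = 0.92), and next to Nelfe (r = 0.91) the genes closest to Lcn2 were Ngp (0.89) and Camp (0.88). Chil3 was closest to Klf2 (r = 0.92), a transcription factor of resting T cells, and not to another granule gene. Among the monocyte genes, Lyz2 in CD4 cells was closest to Ccr6 (r = 0.93), Cst3 to Svbp (0.94) and Fcer1g to Ms4a4c (0.89), and Tyrobp was among the closest 3 to Fcer1g (0.82). In CD8a cells, Lyz2 was closest to Timm50 (r = 0.86) and Cst3 to Srgn (0.89). For the summed members, the closest gene was Dnajc8 for the granule sum in CD4 cells (r = 0.94) and Vamp8 in CD8a cells (0.89), and Tmem176a for the monocyte sum in CD4 cells (0.94) and Ebp in CD8a cells (0.90). None of the 3 genes closest to a member belonged to the other group of members. With so few members among 2999 or 2851 genes, this was likely in any case and does not separate the groups. No monocyte gene was among the 3 closest to another monocyte gene either.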

How the data were processed

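Spleen cells of 12 mice were sequenced with the 10x Genomics single cell 3' kit. Cell Ranger 2.1.1 and mm10 are named in the submitters' processing notes. The authors deposited, per cell type and comparison, average expression per mouse (signal, linear, not counts). How cells were filtered and called CD4 or CD8a, how doublets were treated and how genes were chosen was not stated in the sources used here. A gene had the same values in every table of a cell type, and 0 columns were unused.

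The members and gene lists were chosen with earlier results of these data known. Groups come from the labels, which number the mice as separate animals. Values were tested as log2(value + 0.1) with limma 3.58.1 (empirical Bayes with trend) in R 4.3.3, with Benjamini-Hochberg adjustment over all genes listed for the comparison and calls at 0.05. A member listed for the cell type but not for the comparison, and the interaction, used 1 fit of 12 mice. CD8a and CD4 values were compared within mice over genes listed for both. The script was tested on simulated data. Named genes were all members, S100a8 and S100a9, the 3 genes of a list with the smallest p (fewer where fewer were called), and the closest genes by r, predicted genes left out. Alternatives were the added constant, a filter on low genes, centring, no trend, sample weights, a replicate block, 1 fit of 4 groups, and leaving out each mouse. Promoters and their motifs were read from RefSeq.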

Additional observations from a re-analysis of the deposited data

How the results depend on the processing

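Counts of members called depended on the processing, while no called difference changed sign in any alternative. With 0.01 added in place of 0.1, the members called were 5 (3 as reported) for stress in WT and 1 (2) for stress in KO in CD4 cells, 5 (2) for KO without stress in CD4 cells, and 3 (0) for stress in WT and 2 (1) for KO without stress in CD8a cells. Of all listed genes, 1435 of 2413, 747 of 1898 and 135 of 496 were then called in these CD4 comparisons. In the CD8a comparisons 1429 of 2108 and 37 of 303 were. With 1 added they were 1 for stress in KO, 0 for KO under stress and 0 for KO without stress in CD4 cells, and 0 for KO without stress in CD8a cells. Removing the lowest 25% of genes left only Cst3 of the members, so calls were 1 for stress in WT and 0 for the other 3 comparisons in CD4 cells, 0 for stress in KO (1), KO under stress (3) and KO without stress (1) in CD8a cells, and 1 (2) for CD8a against CD4. Centring on each mouse's median gave 0 for KO under stress and 1 for KO without stress in CD4 cells, and in CD8a cells 5 for stress in WT, 2 for stress in KO, 1 for KO under stress and 0 for KO without stress. After centring, 1996 of 2108 genes were called for stress in WT and 901 of 2023 for stress in KO in CD8a cells. Without a trend 1 was called for stress in KO in CD4 cells and 2 for KO without stress in CD8a cells. Sample weights gave 6 and 2 for KO without stress in CD4 and CD8a cells, where 267 of 496 and 62 of 303 listed genes were called. A fit of all 4 groups gave 0 for KO under stress in CD4 cells, and 2, 1 and 0 for stress in KO, KO under stress and KO without stress in CD8a cells.

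Leaving out 1 mouse gave 2 to 3 members for stress in WT, 0 to 2 for stress in KO, 0 to 2 for KO under stress and 0 to 5 for KO without stress in CD4 cells, 0 to 2, 0 to 3 and 0 to 2 for the last 3 in CD8a cells, and 0 to 2 for the CD4 interaction. Mouse numbers are not said to pair animals, and deviations of same-numbered mice from their group means correlated by −0.24 to 0.24. With 3 mice per group, such correlations cannot decide whether same-numbered mice were handled together. With a replicate block, 4 members were called for stress in KO and 4 for KO without stress in CD4 cells, and 0 for KO without stress in CD8a cells. Of the listed genes, 789 of 1898, 229 of 496 and 13 of 303 were called in these fits. CD8a against CD4 was itself compared in pairs, within each mouse.

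Over all genes, counts that moved by more than 1.5 times were, in CD4 cells, 750 for stress in KO (1253 in the fit of 4 groups), 29 for KO under stress (17 with 1 added, 7 centred, 55 with weights, 3 in the fit of 4 groups, 2 to 52 leaving out a mouse) and 108 for KO without stress (4 with 1 added, 4 with the low filter, 69 without trend, 267 with weights, 229 with the block, 2 to 252 leaving out a mouse). In CD8a cells they were 810 for stress in KO (1357 in the fit of 4 groups), 61 for KO under stress (11 centred, 18 in the fit of 4 groups, 3 to 61 leaving out a mouse) and 25 for KO without stress (10 with the low filter, 126 centred, 63 without trend, 62 with weights, 13 with the block, 9 to 47 leaving out a mouse). The interactions had 0 (CD4: 1 with 0.01 added, 1 without trend, up to 17 leaving out a mouse; CD8a: 1 with the block, up to 1 leaving out a mouse). Centring changed the share of calls that were higher to 71.4% (44.8% as reported) for KO under stress and 18.7% (69.4%) for KO without stress in CD4 cells, to 57.2% (39.2%), 81.8% (44.3%) and 5.56% (48%) for stress in WT, KO under stress and KO without stress in CD8a cells, and to 49.5% (33.2%) for CD8a against CD4. Centring moved the median log2 difference of all genes by over 0.1 for KO under stress (−0.11 as reported, 0.03 centred) and KO without stress (0.20, −0.06) in CD4 cells, and for stress in WT (0.09, 0.29) and KO without stress (0.09, −0.10) in CD8a cells. The causes were not tested. Depth is unknown, and members near the low end of the tables, where the added 0.1 exceeds most of their values, are the least certain.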
